A study of Homo sapiens with 12 samples.

Results

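The 10 genes described here belong to transforming growth factor beta (TGF-beta) signaling and were followed in HLE cells, a human hepatocellular carcinoma line, after depletion of YAP and TAZ or of ATF4 and with or without Sorafenib. They were chosen as a list of names with earlier results of these data known, though with no threshold on their values. All 10 were found by their Entrez identifiers among the 26258 genes of the deposited table. They are the ligand genes *TGFB1* (7040) and *TGFB2* (7042), the activin subunit gene *INHBA* (3624), the latency family gene *LTBP2* (4053), the receptor genes *TGFBR1* (7046) and *TGFBR2* (7048), the signal transducer *SMAD3* (4088), the inhibitors *SMAD7* (4092) and *BAMBI* (25805), and the matrix gene *TGFBI* (7045). Cells had received control siRNA (siCtrl), siRNA against YAP and TAZ together (siY/T) or siRNA against *ATF4* (siATF4), and each was cultured in DMSO, the solvent, or in Sorafenib (Srf), a multikinase inhibitor, at 5 µM by the labels, a dose on which the labels and the study's text differ. Each of the 6 groups held 2 RNA-seq libraries, 12 in all, and every group carried an siRNA, so that no untransfected cells served as a baseline.

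TGF-beta is secreted in a latent form, bound to its own propeptide and often to a latent TGF-beta binding protein in the matrix, and must be released before it can act. The free ligand joins a type II receptor to a type I receptor, which phosphorylates SMAD2 and SMAD3. These enter the nucleus with SMAD4 and act on target genes, among them *SMAD7*, whose product blocks the type I receptor and so closes a negative feedback loop. In liver cancer the pathway is known both for restraining growth and for driving mesenchymal traits. YAP and TAZ act through TEAD factors and share several target genes with the SMADs, and ATF4 is the transcription factor of the amino acid and stress response.

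Libraries held between 41408348 and 53619732 reads on genes, and values are given as CPM, reads per 1000000 reads on genes. The 2 siY/T DMSO libraries, on which every siY/T comparison in DMSO rests, stood farthest from each other, with a chi-square per gene of 20.7 beside 2.98 to 8.30 in the other groups. As CPM is a share of the RNA of a whole culture, fewer cells of a type and less RNA per cell cannot be told apart. The siRNA targets were lower in every depleted library, *YAP1* at a mean of 52.1 against 278 CPM, *WWTR1*, which encodes TAZ, at 61.0 against 171 CPM, and *ATF4* at 98.5 against 248 CPM in DMSO. In Sorafenib *ATF4* stood at a mean of 87.6 CPM in siATF4 against 488 CPM in siCtrl cells. The depletions were not fully separate at the level of RNA. *WWTR1* also fell in siATF4 DMSO cells, by 0.70 on the log2 scale, and *ATF4* also fell in siY/T Srf cells, by 0.63. Of 13 hepatocyte genes, 11 stayed under 1 CPM in all libraries, among them *ALB* and *AFP*, and *FGB*, a fibrinogen gene, was the one that was abundant, while *KRT8*, *KRT18* and *VIM* were abundant. All 3 endothelial markers and 3 of 4 leukocyte markers were under 1 CPM throughout.

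Where on the genome the genes lie is given on GRCh37, the build the authors mapped to. *TGFB1* occupies chr19:41807492-41859827 on the minus strand and *TGFB2* chr1:218518678-218617961 on the plus strand. *INHBA* lies at chr7:41706766-41745432 (minus) and *LTBP2* at chr14:74964886-75079081 (minus). The receptor genes are at chr9:101866320-101916474 (plus) for *TGFBR1* and chr3:30648093-30735634 (plus) for *TGFBR2*. *SMAD3* lies at chr15:67356101-67487511 (plus), *SMAD7* at chr18:46446223-46477335 (minus), *BAMBI* at chr10:28966439-28971861 (plus) and *TGFBI* at chr5:135364677-135399507 (plus). Reads were counted over exons, so introns and promoters add nothing to the values.

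Because *TGFB2* was the ligand gene lowered by both depletions in DMSO and *SMAD7* the feedback gene raised by siY/T, stretches of their promoters are shown. They come from RefSeq windows that run from 250 bases before to 50 bases after each start on GRCh38.p14, a different build from the mapping, and all lie upstream of the start. The capitals mark CATTCC, the core that TEAD factors recognize, in the TGFB2 stretch chr1:218345131-218345176 (plus), 185 bases upstream, and CAGAC, a SMAD box, in the others. These are chr1:218345263-218345307 (plus), 53 bases upstream of *TGFB2*, and chr18:48951158-48951202 and chr18:48951069-48951113 (minus), 217 and 128 bases upstream of *SMAD7*.
TGFB2, CATTCC: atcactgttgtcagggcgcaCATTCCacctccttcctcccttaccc
TGFB2, CAGAC: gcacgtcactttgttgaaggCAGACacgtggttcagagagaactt
SMAD7, distal CAGAC: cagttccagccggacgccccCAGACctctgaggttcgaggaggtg
SMAD7, proximal CAGAC: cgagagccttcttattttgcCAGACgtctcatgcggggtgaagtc
Both strands were searched in windows of all 10 genes and of 27305 promoters in all. CATTCC was in the window of *TGFB2* alone among the 10 and in 14.0% of all windows. CAGAC was in 7 of the 10, namely *TGFB2*, *INHBA*, *TGFBR1*, *BAMBI*, *LTBP2*, *SMAD3* and *SMAD7*, and in 45.0% of all windows. TGATGNAA, the core of the element that ATF4 binds, was in 0 of the 10 and in 3.67% of all windows, and TGANTCA, the AP-1 site, was in 0 of the 10 and in 7.76%. Such a match describes letters in a window, not a site in use.

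Per kilobase of the canonical transcript, *TGFBI* was the most abundant of the 10 genes, with a mean over the 12 libraries of 358 CPM per kb. *SMAD3* followed with 44.2, *TGFB1* with 38.2 and *TGFBR2* with 26.6 CPM per kb. The feedback gene *SMAD7* reached 12.4 CPM per kb. *TGFB2* at 5.06, *TGFBR1* at 3.58, *INHBA* at 2.79 and *LTBP2* at 1.14 CPM per kb made up the lower range, and *BAMBI* stood last at 0.209 CPM per kb. So *TGFB1* was the more abundant of the ligand genes and *TGFBR2* the more abundant of the receptor genes in these cells. The mean level differed between the highest and the lowest of the 6 groups by 1.52-fold for *SMAD3* and by up to 4.17-fold for *LTBP2* among the 9 genes above 1 CPM, as the plot of CPM by library shows.

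**Figure D1:**
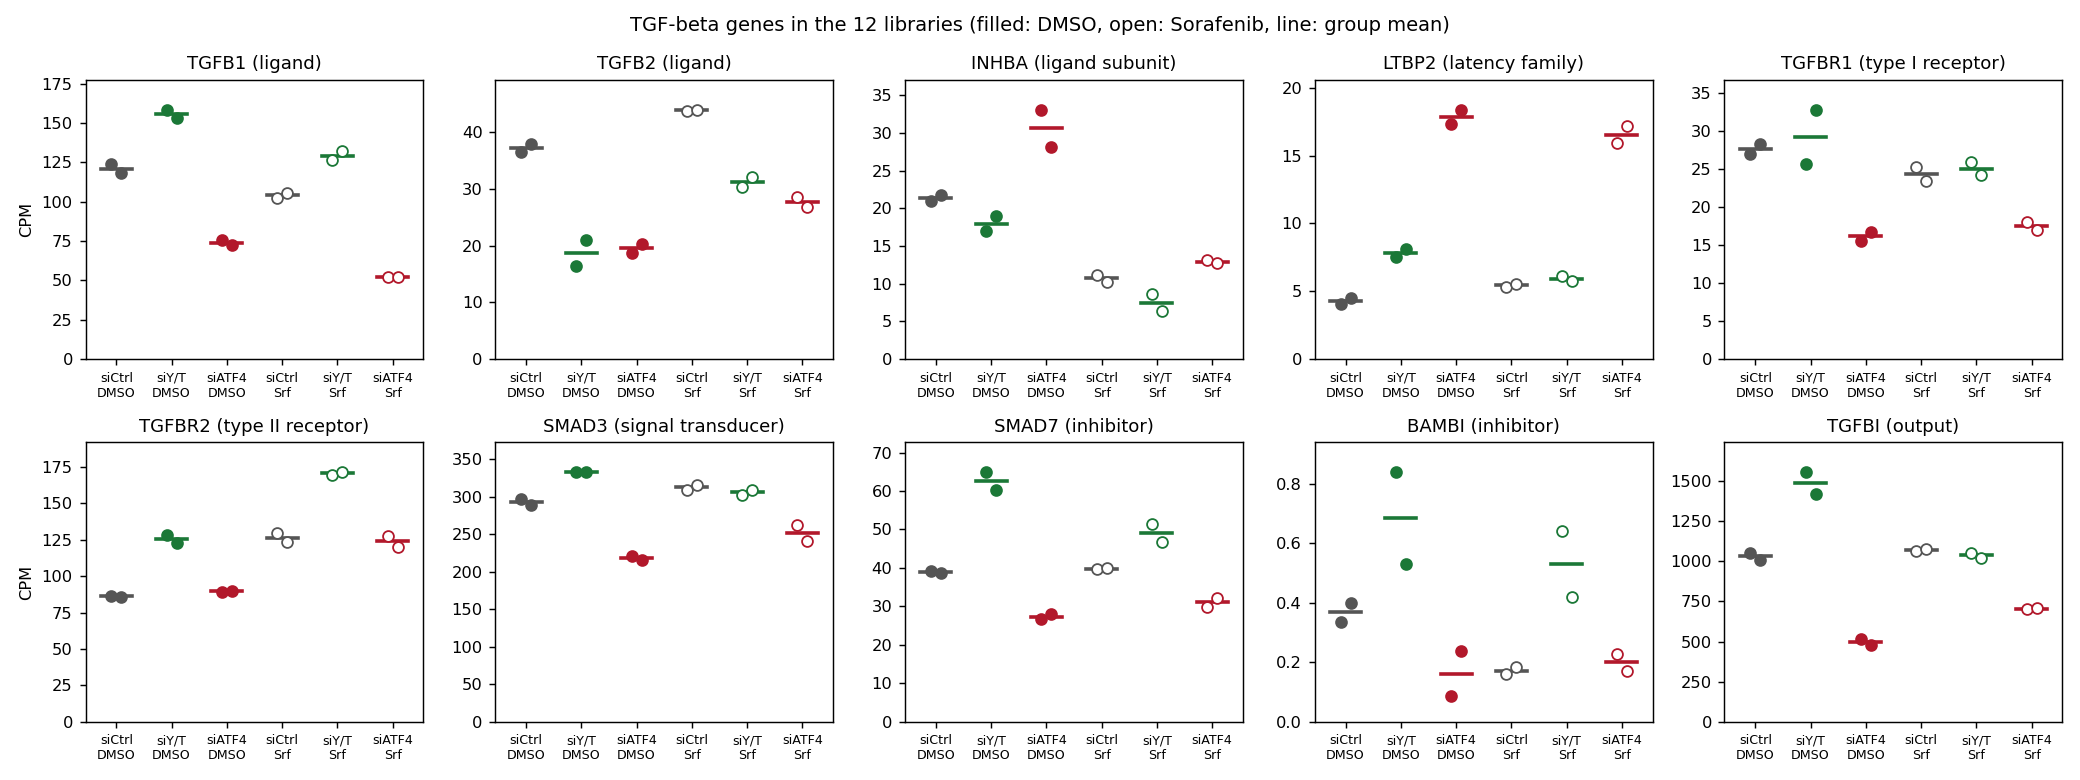
CPM (y axis, from 0, own scale per panel) of the 10 TGF-beta genes in the 6 groups (x axis), with 1 point per library, filled for DMSO and open for Sorafenib, and a line at the group mean of 2 libraries. *LTBP2* is highest in the 4 siATF4 libraries, at 15.9 CPM or more, and *INHBA* is lower in each Sorafenib group than in its DMSO group.

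The question behind the depletions was what YAP and TAZ, or ATF4, sustain in these cells. A gene was called lowered or raised where its unadjusted P, two-sided, was under 0.05 and its log2 fold change reached 0.58 in size, the thresholds of the study's methods, in a limma fit over the 13515 genes that reached 1 CPM in 2 or more libraries. Adjusted p is the Benjamini-Hochberg value of that fit, and fold changes are on the scale of log2(CPM + 0.5), which understates the change of low genes. *BAMBI* did not pass the filter, which left 9 of the 10 genes. The siY/T and siATF4 comparisons share their siCtrl libraries. With 2 libraries per group, libraries can lie apart without overlap where a difference is small. *SMAD3* with siY/T in Sorafenib did so at −0.03 (limma adjusted p = 0.56). The share of all genes that lie apart is not given here, so lack of overlap is a description. In DMSO, siY/T lowered *TGFB2* and raised *LTBP2* and *SMAD7*, 3 of 9 genes beside 14.6% of all genes tested (3.61% lowered and 11.0% raised). In DMSO, siATF4 lowered *TGFB1*, *TGFB2*, *TGFBR1* and *TGFBI* and raised *LTBP2*, 5 of 9 beside 22.7% of all genes (14.1% lowered and 8.57% raised). Under Sorafenib, siY/T called 0 of the 9 beside 9.95% of all genes (3.84% lowered and 6.11% raised). Under Sorafenib, siATF4 lowered *TGFB1*, *TGFB2* and *TGFBI* and raised *LTBP2*, 4 of 9 beside 28.9% (18.7% lowered and 10.3% raised). The median log2 fold change of the 9 genes was 0.36 with siY/T and −0.50 with siATF4 in DMSO, and 0.04 and −0.35 in Sorafenib, while the medians of all genes tested lay at 0.07, −0.00132, 0.05 and −0.00816.

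**Figure D2:**
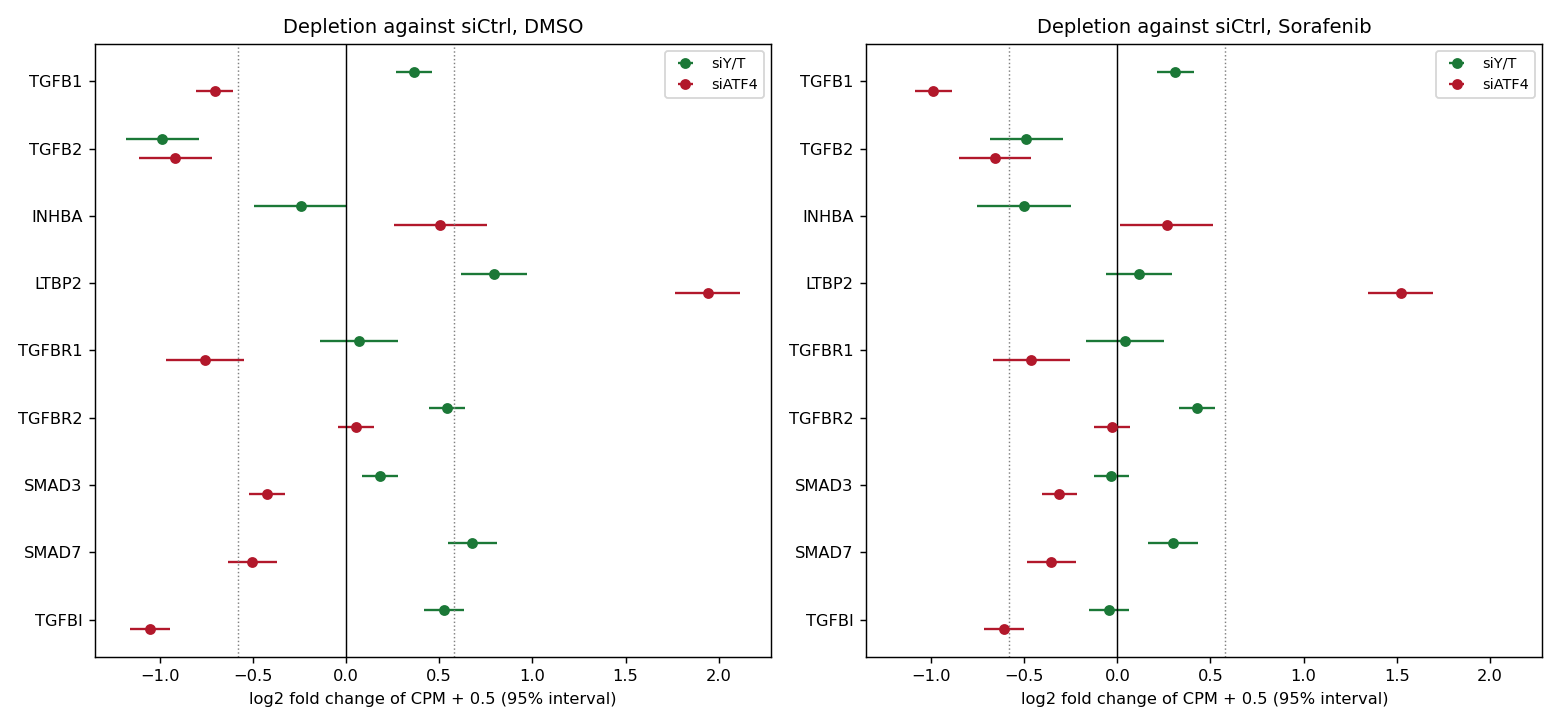
Log2 fold change of CPM + 0.5 (x axis) against siCtrl for the 9 genes tested (y axis), with 95% intervals from the limma fit, in DMSO on the left and in Sorafenib on the right. Dotted lines stand at an absolute change of 0.58. The siY/T and siATF4 points of *TGFB1*, *SMAD7* and *TGFBR1* lie apart in DMSO, and those of *TGFB2* lie close together at −0.99 and −0.92.

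*TGFB1* encodes the most widely expressed TGF-beta isoform. In DMSO its libraries stood at 124 and 118 CPM in siCtrl, 159 and 153 in siY/T and 75.7 and 72.3 in siATF4 cells. In Sorafenib they stood at 102 and 106 CPM in siCtrl, 127 and 132 in siY/T and 52.1 and 52.4 in siATF4 cells. The siY/T libraries were the highest and the siATF4 libraries the lowest in each medium, and no pair of groups overlapped. *TGFB1* fell with siATF4, by 0.71 on the log2 scale in DMSO (SE 0.045, limma adjusted p = 1.91e-08) and by 0.99 in Sorafenib (adjusted p = 5.78e-10). The siY/T differences, at 0.36 in DMSO and 0.31 in Sorafenib, were under the fold threshold, with limma adjusted p of 1.53e-05 and 8.99e-05. Exons of *TGFB1* overlap those of *HNRNPUL1* on the other strand, and whether counting used strand is not given in the sources used here. *HNRNPUL1*, an RNA-binding protein gene at 421 to 555 CPM, differed by 0.20 with siY/T and by −0.17 with siATF4 in DMSO, and by 0.15 and 0.05 in Sorafenib. Its part in the *TGFB1* values was not tested.

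*TGFB2* encodes the second isoform, which needs the co-receptor betaglycan to bind well. In DMSO the libraries held 36.6 and 37.9 CPM of it in siCtrl, 16.4 and 21.0 in siY/T and 18.7 and 20.3 in siATF4 cells. In Sorafenib they held 43.8 and 44.0 CPM in siCtrl, 30.3 and 32.0 in siY/T and 28.5 and 26.8 in siATF4 cells. Both depletions lay under siCtrl without overlap in both media, and the siATF4 libraries lay between the siY/T libraries in DMSO. *TGFB2* fell in DMSO by 0.99 with siY/T (SE 0.0901, limma adjusted p = 1.05e-06) and by 0.92 with siATF4 (adjusted p = 1.13e-06). In Sorafenib it fell by 0.66 with siATF4 (limma adjusted p = 2.02e-05), whereas the siY/T difference of −0.49 was under the fold threshold (adjusted p = 0.000634). *TGFB2-OT1*, a transcript annotated within *TGFB2* on the same strand, stood at 2.36 to 7.16 CPM, and its reads cannot be told apart from those of *TGFB2* where their exons overlap. The antisense gene *TGFB2-AS1* was between 0.0780 and 0.570 CPM.

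*INHBA* encodes the beta A subunit of activins, which signal through their own receptors to the same SMAD2 and SMAD3. The siCtrl libraries held 20.9 and 21.8 CPM in DMSO and 11.1 and 10.2 in Sorafenib. With siY/T the values were 17.0 and 18.9 CPM in DMSO and 8.62 and 6.36 in Sorafenib. With siATF4 they were 33.1 and 28.2 CPM in DMSO and 13.1 and 12.8 in Sorafenib. The order siY/T, siCtrl, siATF4 was the same in each medium with no overlap, but no depletion reached the fold threshold. The log2 differences from siCtrl were −0.24 and −0.50 with siY/T and 0.51 and 0.26 with siATF4, in DMSO and in Sorafenib. Their limma adjusted p, in the same order, were 0.0849 and 0.00316 with siY/T and 0.00173 and 0.0544 with siATF4. Without the lower siATF4 DMSO library, the second, the value in DMSO was 0.62 and passed, and without the first siY/T Srf library the siY/T value in Sorafenib was −0.71 and passed. *INHBA-AS1*, on the other strand, did not exceed 0.215 CPM.

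*LTBP2* belongs to the family of latent TGF-beta binding proteins but is known mainly as a microfibril protein that does not itself hold latent TGF-beta. In DMSO it stood at 4.07 and 4.50 CPM in siCtrl, 7.49 and 8.11 in siY/T and 17.3 and 18.4 in siATF4 cells. In Sorafenib it stood at 5.32 and 5.54 CPM in siCtrl, 6.12 and 5.75 in siY/T and 15.9 and 17.1 in siATF4 cells. No groups overlapped within a medium, and the siATF4 libraries were far above the others in both. *LTBP2* rose with siATF4 by a log2 fold change of 1.94 in DMSO (3.84-fold, SE 0.0817, limma adjusted p = 4.07e-10) and of 1.52 in Sorafenib (2.87-fold, adjusted p = 2.67e-09). It rose with siY/T in DMSO by 0.80 (limma adjusted p = 3.06e-06), and differed by 0.12 in Sorafenib (adjusted p = 0.253). Among genes averaging 5 CPM or more, the patterns most like that of *LTBP2* over the 12 libraries were those of *R3HCC1* (Pearson r = 0.99), *PSMF1* (0.98) and *CD68* (0.98), where the 12 points share 6 groups. *CD68*, a lysosomal gene of macrophages and of many other cells, was the leukocyte marker above 1 CPM, with means of 20.4 CPM in siCtrl and 73.5 CPM in siATF4 DMSO cells, while *PTPRC*, *CD3E* and *CD14* stayed under 1 CPM in all libraries.

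*TGFBR1* encodes the type I receptor kinase. In DMSO its libraries held 26.9 and 28.2 CPM in siCtrl, 25.6 and 32.7 in siY/T and 15.5 and 16.7 in siATF4 cells. In Sorafenib they held 25.2 and 23.4 CPM in siCtrl, 25.9 and 24.2 in siY/T and 18.1 and 17.0 in siATF4 cells. The siY/T libraries overlapped siCtrl in both media, and the siATF4 libraries lay under all others. *TGFBR1* fell with siATF4 in DMSO by 0.76 (SE 0.0956, limma adjusted p = 1.18e-05), and its difference in Sorafenib, −0.46, was under the fold threshold (adjusted p = 0.000684). With siY/T the 95% interval of the log2 difference ran from −0.14 to 0.28 in DMSO and from −0.17 to 0.25 in Sorafenib.

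*TGFBR2* encodes the type II receptor, which binds the ligand and activates the type I receptor. In DMSO it stood at 86.6 and 85.7 CPM in siCtrl, 128 and 123 in siY/T and 89.0 and 90.1 in siATF4 cells. In Sorafenib it stood at 129 and 124 CPM in siCtrl, 170 and 171 in siY/T and 128 and 120 in siATF4 cells. The siY/T libraries were apart above siCtrl in each medium, by 0.54 in DMSO (SE 0.0445, limma adjusted p = 4.13e-07) and 0.43 in Sorafenib (adjusted p = 5.27e-06), both under the fold threshold. With siATF4 the log2 difference was 0.06 in DMSO, with a 95% interval from −0.04 to 0.15, and −0.03 in Sorafenib, with an interval from −0.13 to 0.07. So of the receptor pair, the type I gene was the one that siATF4 lowered in DMSO.

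*SMAD3* encodes a SMAD that binds DNA after receptor activation. In DMSO its libraries were at 297 and 289 CPM in siCtrl, 333 and 333 in siY/T and 221 and 215 in siATF4 cells. In Sorafenib they were at 309 and 316 CPM in siCtrl, 302 and 309 in siY/T and 263 and 242 in siATF4 cells. The siATF4 libraries were the lowest in each medium, at −0.42 (limma adjusted p = 1.81e-06) and −0.31 (adjusted p = 2.53e-05) from siCtrl, both under the fold threshold. The siY/T difference was 0.18 in DMSO and −0.03 in Sorafenib, and no *SMAD3* value was called in any depletion.

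*SMAD7* encodes the inhibitory SMAD that the pathway itself induces. In DMSO it stood at 39.2 and 38.7 CPM in siCtrl, 64.9 and 60.3 in siY/T and 26.6 and 28.0 in siATF4 cells. In Sorafenib it stood at 39.6 and 40.0 CPM in siCtrl, 51.5 and 46.8 in siY/T and 30.0 and 32.2 in siATF4 cells. The siY/T libraries were above and the siATF4 libraries under siCtrl in both media with no overlap. *SMAD7* rose with siY/T in DMSO by a log2 fold change of 0.68 (1.60-fold, SE 0.0614, limma adjusted p = 9.80e-07). The siY/T difference of 0.30 in Sorafenib and the siATF4 differences of −0.50 in DMSO and −0.35 in Sorafenib were under the fold threshold, with limma adjusted p of 0.00135, 8.52e-06 and 0.000164.

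*BAMBI* encodes a decoy receptor without a kinase domain. It was close to the limit of detection. The libraries held 18 and 18 reads of it in siCtrl DMSO cells, 22 to 43 in siY/T DMSO and 4 to 12 in siATF4 DMSO cells, which is 0.336 and 0.399, 0.839 and 0.531, and 0.0857 and 0.238 CPM. In Sorafenib the values were 0.161 and 0.183 CPM in siCtrl, 0.642 and 0.421 in siY/T and 0.228 and 0.171 in siATF4 cells. The siY/T libraries were above siCtrl in both media. When the filter on low values was left out, *BAMBI* passed the thresholds with siY/T in Sorafenib alone (log2 fold change 0.61, limma adjusted p = 0.0445) among the 7 comparisons of 2 groups.

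*TGFBI* encodes a secreted matrix protein named for its induction by TGF-beta. In DMSO it stood at 1055 and 1009 CPM in siCtrl, 1555 and 1421 in siY/T and 514 and 482 in siATF4 cells. In Sorafenib it stood at 1063 and 1080 CPM in siCtrl, 1055 and 1024 in siY/T and 700.0 and 707 in siATF4 cells. The siATF4 libraries were the lowest in each medium, and the siY/T libraries exceeded siCtrl in DMSO only, with the Sorafenib values of siY/T just under those of siCtrl. *TGFBI* fell with siATF4 by 1.05 in DMSO (2.07-fold, SE 0.0493, limma adjusted p = 1.03e-09) and by 0.61 in Sorafenib (1.52-fold, adjusted p = 1.35e-07). The siY/T value was 0.53 in DMSO (limma adjusted p = 1.31e-06), under the fold threshold, and −0.04 in Sorafenib. Without the second siY/T DMSO library the value in DMSO was 0.59 and passed. The genes averaging 5 CPM or more whose patterns were most like that of *TGFBI* over the 12 libraries were *PRSS23* (Pearson r = 0.99), *PLCB3* (0.98) and *PPP2R5D* (0.98).

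Markers of several cell types moved with these groups. *FGB* made up nearly all of the hepatocyte sum and stood at means of 399 CPM in siCtrl, 239 in siY/T and 70.4 in siATF4 DMSO cells, and at 175, 249 and 64.9 CPM in Sorafenib. The sum of 5 epithelial markers was 3278, 1001 and 2198 CPM in DMSO and 3236, 1320 and 2691 CPM in Sorafenib. *KRT8* and *KRT18* made up nearly all of it. *CDH1*, in the same list, went the other way with siY/T. It stood at 0.803, 2.14 and 0.0519 CPM in siCtrl, siY/T and siATF4 DMSO cells, and at 6.19, 7.15 and 0.265 CPM in Sorafenib. *KRT19* and *EPCAM* were under 1 CPM in all libraries. The summed level of 6 fibroblast markers ranged from 147 to 1343 CPM, with group means of 627 in siCtrl, 1057 in siY/T and 158 in siATF4 DMSO cells and of 912, 1328 and 276 in Sorafenib. *COL1A2* made up most of it, at 553 CPM in siCtrl DMSO cells. *PDGFRB* stood at 43.9 CPM in siCtrl, 41.6 in siY/T and 7.51 in siATF4 DMSO cells, and at 79.2, 70.2 and 18.4 CPM in Sorafenib. It thus fell with siATF4 as the sum did, but did not rise with siY/T. *ACTA2* stood at 0.587, 2.07 and 0.839 CPM in DMSO and at 1.62, 2.71 and 0.917 CPM in Sorafenib. *DCN* and *LUM* were under 1 CPM in all 12 libraries. The part of these marker levels in the values of *TGFBI* and of the latency genes described below was not tested.

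Sorafenib was compared with DMSO within each siRNA to ask how the drug moved the pathway. These comparisons share libraries with those above. *INHBA* was the gene called lowered in all 3 backgrounds, and *TGFB2* was called raised in siY/T cells. In siCtrl cells 1 of 9 genes was called, beside 17.5% of all genes (5.15% lowered and 12.3% raised). In siY/T cells 2 of 9 were called, beside 9.97% (4.14% lowered and 5.83% raised), and in siATF4 cells 1 of 9, beside 8.63% (2.95% lowered and 5.68% raised). *INHBA* fell by 0.97 in siCtrl (limma adjusted p = 1.02e-05), by 1.22 in siY/T (adjusted p = 2.73e-06) and by 1.21 in siATF4 cells (adjusted p = 3.46e-06), each with an SE of 0.116 and with every Sorafenib library under every DMSO library of its siRNA. That is a 1.95-fold to 2.33-fold lower level. Among genes averaging 5 CPM or more, *SMOX* (Pearson r = 0.98), *TPM3P9* (0.97) and *TM4SF1* (0.97) had patterns most like that of *INHBA* over the 12 libraries.

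*TGFB2* rose with Sorafenib in siY/T cells by 0.73 (SE 0.0901, limma adjusted p = 2.46e-05), and was at 0.56, under the fold threshold, without the first siY/T DMSO library, which held 16.4 CPM. In siCtrl and siATF4 cells its log2 differences were 0.23 and 0.49, so that the level was higher in Sorafenib in all 3 backgrounds without overlap. *TGFBR2* was likewise higher in Sorafenib without overlap in each background, at 0.55, 0.44 and 0.47 in siCtrl, siY/T and siATF4 cells, all under the fold threshold, with limma adjusted p between 3.16e-07 and 4.77e-06. Without the second siCtrl Srf library the *TGFBR2* value in siCtrl cells was 0.58 and passed. *TGFB1* was lower in Sorafenib without overlap in each, at −0.22, −0.27 and −0.50. *TGFBI* differed by 0.05 in siCtrl, by −0.52 in siY/T and by 0.50 in siATF4 cells. Without the second siY/T DMSO library the *TGFBI* value in siY/T cells was −0.58 and passed. For *TGFBR1*, *SMAD3* and *SMAD7* the differences lay between −0.35 and 0.21, and for *LTBP2* between −0.37 and 0.31.

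**Figure D3:**
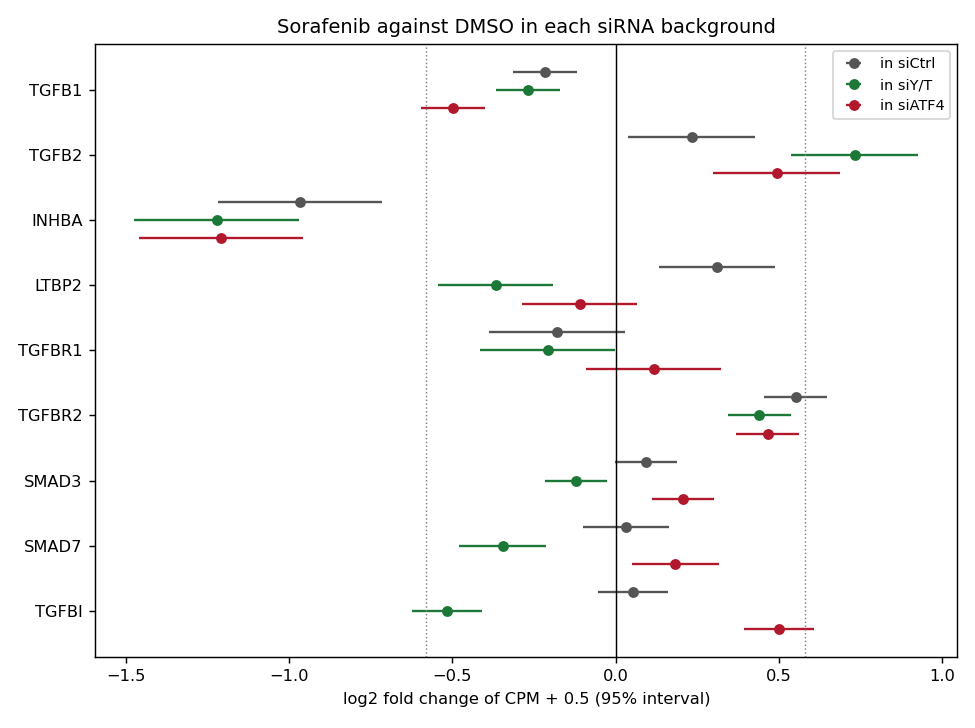
Log2 fold change of CPM + 0.5 between Sorafenib and DMSO (x axis) for the 9 genes tested (y axis) in siCtrl, siY/T and siATF4 cells, with 95% intervals from the limma fit. Dotted lines stand at an absolute change of 0.58. *INHBA* lies near −1 in all 3 backgrounds, and the 3 points of *TGFBI* are spread from −0.52 to 0.50.

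Whether a depletion acted differently in the 2 media was tested as the difference of its effects, called at an adjusted p under 0.05 in limma. For siY/T 5 of 9 genes were called, beside 22.0% of all genes (14.2% lower and 7.81% higher in Sorafenib), and for siATF4 3 of 9, beside 41.1% (21.8% lower and 19.3% higher). The siY/T effect was higher in Sorafenib than in DMSO for *TGFB2*, by 0.50 on the log2 scale (SE 0.127, limma adjusted p = 0.0151), from −0.99 to −0.49. It was lower in Sorafenib for *LTBP2*, by 0.68 (adjusted p = 0.00175 in limma), and for *SMAD7*, by 0.38 (0.00887). It was also lower for *TGFBI*, by 0.57 (limma adjusted p = 0.000251), and for *SMAD3*, by 0.22 (0.0264). In each of these genes the siY/T value lay nearer to 0 in Sorafenib than in DMSO. For *TGFB1* and *TGFBR2* the differences of −0.05 and −0.11 had 95% intervals from −0.19 to 0.09 and from −0.25 to 0.02.

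The siATF4 effect on *TGFB1* was lower in Sorafenib by 0.28 (limma adjusted p = 0.00362), from −0.71 to −0.99. That on *TGFBI* was higher by 0.45 (limma adjusted p = 0.000288), from −1.05 to −0.61, and that on *LTBP2* lower by 0.42 (adjusted p = 0.0113), from 1.94 to 1.52. So in Sorafenib the siATF4 deficit was larger for *TGFB1* and smaller for *TGFBI*. *ATF4* itself differed from siCtrl by −1.33 in DMSO and by −2.47 in Sorafenib on the log2 scale. Its siCtrl mean was 248 CPM in DMSO and 488 CPM in Sorafenib. The part of this inequality in the siATF4 differences of effects was not tested. *TGFB2* at 0.26 and *TGFBR1* at 0.30 did not pass, with limma adjusted p of 0.122 and 0.0977. Several of these calls depend on single libraries. The siY/T difference for *TGFB2* has an adjusted p between 0.0514 and 0.0643 in limma without the second siCtrl DMSO, siCtrl Srf or siY/T Srf library, that for *SMAD3* is lost without any of 5 libraries, and the siATF4 difference for *LTBP2* without the first siCtrl DMSO or siATF4 Srf library.

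A wider list of 87 other genes of TGF-beta, activin and BMP signaling, sorted by role, put the 10 genes in context, and 65 of the 87 passed the filter. That list, like the 10 genes, was chosen with earlier results of these data known. Its shares beside those of all genes are therefore a description, not an independent test. In DMSO siY/T lowered 7 and raised 17 of the 65, which is 36.9% beside 14.6% of all genes, and siATF4 lowered 21 and raised 9, which is 46.2% beside 22.7%. In Sorafenib siY/T lowered 10 and raised 13, 35.4% beside 9.95%, and siATF4 lowered 23 and raised 12, 53.8% beside 28.9%. Sorafenib itself lowered 6 and raised 4 in siCtrl cells, and this 15.4% was under the 17.5% of all genes. It lowered 9 and raised 2 in siY/T cells, 16.9% beside 9.97%, and lowered 5 and raised 11 in siATF4 cells, 24.6% beside 8.63%. The median log2 fold change of the 65 in DMSO was 0.30 with siY/T and −0.15 with siATF4. For 25 of the 65 the siY/T effect differed between the media, 18 lower and 7 higher in Sorafenib, which is 38.5% beside 22.0% of all genes. For 29 the siATF4 effect did, 11 lower and 18 higher, and this 44.6% was near the 41.1% of all genes.

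Genes of latency and activation that were called were raised with siY/T and lowered with siATF4. Of 10 tested, siY/T raised 6 and lowered 0 in DMSO and raised 4 and lowered 0 in Sorafenib, while siATF4 lowered 6 and raised 0 in each medium. Of all genes, siY/T raised 11.0% and 6.11%, and siATF4 lowered 14.1% and 18.7%, in DMSO and Sorafenib. *LRRC32* encodes GARP, which tethers latent TGF-beta to the cell surface. It stood at 31.3 to 31.6 CPM in siCtrl, 115 to 117 in siY/T and 1.88 to 2.46 in siATF4 cells in DMSO. It stood at 37.4 to 39.5, 101 to 105 and 6.16 to 6.40 CPM in Sorafenib. *LRRC32* thus rose with siY/T by 1.87 and 1.42 on the log2 scale, in DMSO and in Sorafenib, and fell with siATF4, with log2 fold changes of −3.59 and −2.52. *LTBP3*, which binds latent TGF-beta for secretion, rose with siY/T from a mean of 107 to 187 CPM in DMSO (log2 fold change 0.80) and fell with siATF4 to 50.1 CPM (−1.08). In Sorafenib *LTBP3* stood at 120 CPM in siCtrl, 189 in siY/T and 59.8 in siATF4 cells, and both differences were called. *THBS1*, whose product thrombospondin can free latent TGF-beta, fell with siATF4, in DMSO from 207 to 52.6 CPM and in Sorafenib from 169 to 89.7 CPM, and was at 205 CPM in siY/T DMSO cells. *LTBP1* rose with siY/T in DMSO from 4.89 to 8.45 CPM but stood at 6.56 CPM in siY/T beside 7.01 CPM in siCtrl cells in Sorafenib, a difference of effects of −0.82 (limma adjusted p = 0.00985). The direction of *LTBP2* under siATF4, a rise in both media, was thus not that of *LTBP3*.

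**Figure D4:**
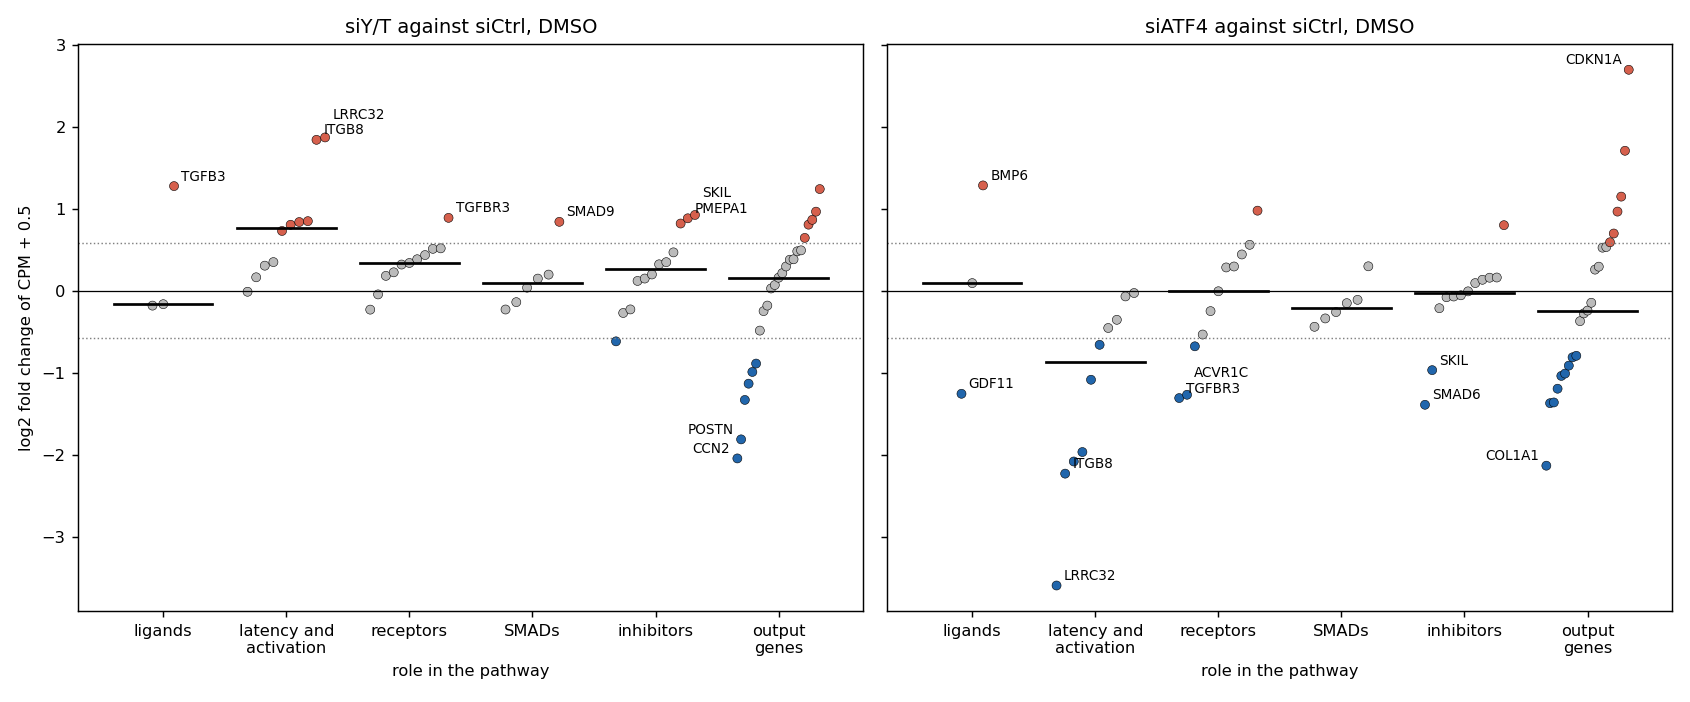
Log2 fold change of CPM + 0.5 (y axis) in DMSO of 65 other TGF-beta, activin and BMP pathway genes, 1 point per gene, by role (x axis), with a line at the median of each role. Blue points were lowered, red raised and grey not called, dotted lines stand at an absolute change of 0.58, and up to 2 called genes per role are named. Of the 10 latency and activation genes 6 are red with siY/T on the left, and 6 are blue with siATF4 on the right.

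Other ligand genes were mostly silent, and 3 of 14 passed the filter. Of these, *TGFB3*, at a mean of 3.56 CPM over the 12 libraries, rose with siY/T in DMSO from 2.30 to 6.30 CPM. The log2 fold change was 1.28 (limma adjusted p = 9.35e-07). In Sorafenib *TGFB3* stood at 2.39 CPM in siCtrl and 5.56 in siY/T cells, and in siATF4 cells at 2.48 CPM in DMSO and 2.34 in Sorafenib. *BMP6* rose with siATF4, in DMSO from 9.44 to 23.7 CPM and in Sorafenib from 8.08 to 12.8 CPM, and with siY/T in Sorafenib to 15.0 CPM. *GDF11* fell with siATF4, in DMSO from 26.0 to 10.6 CPM and in Sorafenib from 19.1 to 6.23 CPM. Of 11 receptor genes tested, siY/T raised 1 and siATF4 lowered 3 and raised 1 in each medium. With siY/T this 9.09% was no more than the 14.6% and 9.95% of all genes, in DMSO and Sorafenib, and with siATF4 it was 36.4% beside 22.7% and 28.9%. The gene raised with siATF4 was *AMHR2*, at 1.13 to 1.37 CPM in DMSO and 1.88 to 2.12 CPM in Sorafenib. *AMHR2* was at 0.422 CPM or less in all other libraries. It thus passed the filter only through the siATF4 libraries, and its rise adds no independent support to the 36.4%. *TGFBR3* encodes betaglycan, the co-receptor that presents TGFB2. It rose with siY/T, in DMSO from 8.13 to 15.5 CPM (log2 fold change 0.89) and in Sorafenib from 7.27 to 14.7 CPM (0.97), and fell with siATF4 to 2.99 CPM (−1.31) and 3.97 CPM (−0.80). *BMPR2*, the BMP type II receptor, fell with siATF4, in DMSO from 160 to 99.8 CPM and in Sorafenib from 181 to 119 CPM. Of 6 other SMAD-related genes, 1 was raised by siY/T in DMSO, and this 16.7% was near the 14.6% of all genes. With siATF4 in DMSO 0 were called, beside 22.7% of all genes. In Sorafenib 0 were called by either depletion, beside 9.95% with siY/T and 28.9% with siATF4.

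Among 12 inhibitors tested, siY/T raised 3 and lowered 1 in DMSO (33.3% beside 14.6% of all genes) and raised 1 and lowered 1 in Sorafenib (16.7% beside 9.95%). With siATF4 1 rose and 2 fell in DMSO (3 of 12 beside 22.7%), and 2 rose and 3 fell in Sorafenib (41.7% beside 28.9%). *SKIL* encodes SnoN, a SMAD corepressor that is also a TGF-beta target. It stood at 43.1 to 46.4 CPM in siCtrl, 74.1 to 98.2 in siY/T and 21.6 to 23.8 in siATF4 DMSO cells, and so rose by 0.92 and fell by 0.97 on the log2 scale. In Sorafenib it rose by 0.90 with siY/T and fell by 0.92 with siATF4. *SMAD6*, the inhibitory SMAD of BMP signaling, followed with 0.82 for siY/T and −1.39 for siATF4 in DMSO, at a siCtrl level of 6.90 CPM. In Sorafenib the *SMAD6* values were 0.42, not called, and −1.04, and the difference of effects passed for both depletions, at −0.40 and 0.35 (limma adjusted p of 0.0418 and 0.044). *PMEPA1*, a TGF-beta-induced inhibitor, rose with siY/T in DMSO from 22.1 to 41.3 CPM and stood at 21.1 beside 23.9 CPM in Sorafenib, a difference of effects of −1.06 (limma adjusted p = 0.00011). *SMURF2*, a ubiquitin ligase that works with SMAD7, rose with siATF4, in DMSO from 142 to 248 CPM and in Sorafenib from 82.3 to 174 CPM, and fell with Sorafenib in siCtrl cells. In siY/T cells *SMURF2* lay under siCtrl, at 92.9 CPM in DMSO and 67.2 CPM in Sorafenib.

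Output genes split within each depletion. Of 23 tested, siY/T lowered 6 and raised 5 in DMSO and lowered 9 and raised 5 in Sorafenib, while siATF4 lowered 9 and raised 6, and lowered 10 and raised 8. These are 47.8% and 60.9% with siY/T, beside 14.6% and 9.95% of all genes, and 65.2% and 78.3% with siATF4, beside 22.7% and 28.9%. *CCN2* encodes connective tissue growth factor and is a known target of SMADs and of YAP and TAZ. It stood at means of 33.1 CPM in siCtrl, 7.66 in siY/T and 109 in siATF4 cells in DMSO, and at 11.7, 3.78 and 76.5 CPM in Sorafenib. *CCN2* thus fell with siY/T by 2.04 and rose with siATF4 by 1.71 in DMSO, the opposite of the order of *TGFBI* in that medium. *COL1A1*, a collagen gene that also counts among the fibroblast markers, fell with siATF4, in DMSO from 28.7 to 6.20 CPM and in Sorafenib from 40.9 to 6.78 CPM. *CDKN1A*, the cell cycle inhibitor p21 and a target of many pathways, rose with siATF4, in DMSO from 15.4 to 102 CPM and in Sorafenib from 7.20 to 38.4 CPM.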

How the data were processed

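RNA from HLE cells in 6 groups was sequenced from poly(A)-enriched stranded libraries, per the labels. The authors mapped reads to hg19 with STAR, kept unique hits, counted those on RefSeq mRNA exons in QuasR, and deposited CPM for 26258 Entrez identifiers. All values in all 12 libraries were whole multiples of 1 read within 0.001 read, so reads were recovered for the count tests, and 1 read stood for 0.0186 to 0.0241 CPM. The table held 2 libraries per group and 0 unmapped columns. The study's methods describe biological replicates, in a larger number than the 2 per group used here, and the labels do not say that these 2 came from separate cultures, so p-values measure the spread between these libraries, which may be technical.

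Genes that reached 1 CPM in 2 or more libraries entered limma 3.58.1 (R 4.3.3) on the scale of log2(CPM + 0.5) (a coefficient per group, trend of variance on mean), with Benjamini-Hochberg adjustment over 13515 genes. A change was called where the unadjusted P was under 0.05 and the log2 fold change reached 0.58 in size, and a difference of effects at an adjusted p under 0.05. Alternatives were edgeR 4.0.16 and DESeq2 1.42.0 on whole reads, TMM and quantile scaling, other pseudocounts, filters and thresholds, a replicate block and leaving out each library. The fits were tested on simulated data.

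Other pathway genes were named by rule, up to 3 per role with the largest called change and a mean of at least 5 CPM over the 12 libraries, and genes of like pattern for the 3 members with the widest range. *TGFB3* and *AMHR2*, with lower means, were named outside that rule. The members and all lists were chosen with earlier results of these data known. RefSeq GRCh38.p14 named 26111 identifiers and gave the promoter windows, and GENCODE gave positions on GRCh37. CPM shares depend on all other genes, and uniquely mapped reads leave out shared sequence.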

Additional observations from a re-analysis of the deposited data

Results flagged for a closer look

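The effect of a depletion differed between DMSO and Sorafenib by a test of the difference itself (limma, Benjamini-Hochberg adjusted p under 0.05) for 8 values of 6 genes. For siY/T the log2 fold change in Sorafenib minus that in DMSO was 0.50 for *TGFB2*, −0.68 for *LTBP2*, −0.22 for *SMAD3*, −0.38 for *SMAD7* and −0.57 for *TGFBI*. For siATF4 it was −0.28 for *TGFB1*, −0.42 for *LTBP2* and 0.45 for *TGFBI*. *TGFBI* and *LTBP2* were the genes with a difference for both depletions, and that of *TGFBI* had opposite signs. Both sets of differences use the same siCtrl libraries. The siATF4 differences compare media in which the *ATF4* deficit itself differed, at −1.33 in DMSO and −2.47 in Sorafenib. Groups of 2 libraries are too small for a test of single libraries that stand apart. The siY/T differences rest on the pair of siY/T DMSO libraries, whose reads differed from each other more than those of any other pair, with a chi-square per gene of 20.7 beside 2.98 to 8.30 in the other 5 groups.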

How the results depend on the processing

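All 24 called values of the 10 genes kept their sign in 408 alternative values, and 383 of those kept the call. Of 942 alternatives for the 57 values not called, 13 gained a call and 16 changed sign. Requiring a change of at least 1 with an adjusted p under 0.05 called 0, 2 and 1 of the 9 genes for siY/T in DMSO and siATF4 in DMSO and Sorafenib, 0 and 1 for Sorafenib in siCtrl and siY/T cells, and, of the 65 other genes, 8 and 11 for siY/T and 19 and 16 for siATF4 in DMSO and Sorafenib, and 2, 4 and 6 for Sorafenib in siCtrl, siY/T and siATF4 cells. Shares of all genes under that rule and under the other alternative settings are not given here. Whether these counts stand above such shares therefore cannot be read from them. For siY/T in Sorafenib, no filter or quantile scaling called 1 of the members, and quantile scaling called 2 for Sorafenib in siCtrl cells. For the siY/T difference of effects, no filter called 3 of the members and 13 other genes, and a fit of only the groups compared called 5 for siATF4. Without single libraries the member counts ranged from 0 to 1 for siY/T in Sorafenib, 1 to 2 for Sorafenib in siCtrl and 1 to 3 in siY/T cells, 3 to 5 for the siY/T and 2 to 4 for the siATF4 difference, and the other genes from 16 to 35 for the siY/T difference.

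Signs changed only in values that were not called. *TGFBR1* with siY/T was −0.025 in DMSO by quantile scaling (−0.11 to 0.25 without single libraries), and in Sorafenib −0.014 by TMM, −0.030 by quantile scaling, −0.013 by edgeR and −0.011 by DESeq2 (−0.0094 to 0.092 without single libraries). Without single libraries *TGFBR2* with siATF4 in Sorafenib ranged from −0.074 to 0.015, and the siY/T difference of effects of *TGFBR1* from −0.20 to 0.15. In Sorafenib against DMSO in siCtrl cells *SMAD7* was −0.0096 by DESeq2 and *TGFBI* −0.020 by quantile scaling. The siATF4 difference of effects of *LTBP2* was −0.23 and lost its call by quantile scaling, and the siY/T differences of *TGFB2* and *SMAD3* lost theirs with no filter on low values. The cause was not tested. A fit with the replicate number as a block kept all 81 member values, with 3, 0, 5 and 4 members called in the depletions. The correlations of replicate differences between groups ran from −0.28 to 0.19, with 4 of 15 over 0.1 and 2 under −0.1. Whether libraries with the same replicate number share a batch was not tested. With 2 libraries per group, small differences were not detectable where the intervals hold 0, and *BAMBI* at 4 to 43 reads is limited by depth.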

Other observations

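Some other pathway genes not described above changed with Sorafenib. *ID3*, a target of BMP signaling, fell in siCtrl cells from 158 to 91.2 CPM (log2 fold change −0.79). In siY/T cells *SNAI1*, a transcription factor of mesenchymal transition, fell from 10.6 to 4.12 CPM and *TAGLN*, a smooth muscle and actin-bundling gene, from 19.8 to 8.67 CPM. In siATF4 cells *FN1*, the fibronectin gene, rose from 20.5 to 42.2 CPM, and *JUNB*, a subunit of AP-1, fell from 27.1 to 11.2 CPM, with a smaller log2 fold change of −0.74 in siY/T cells. *FSTL3*, an activin-binding antagonist, rose with Sorafenib in siCtrl cells from 45.9 to 75.2 CPM. With siY/T in Sorafenib *FSTL3* stood at 46.3 CPM, a log2 fold change of −0.70 against siCtrl. Of these 6 genes, the siY/T effect in Sorafenib minus that in DMSO passed for 5, *TAGLN* (−1.39, limma adjusted p = 0.000337), *SNAI1* (−0.82, 0.0193), *JUNB* (−0.67, 0.0012), *FN1* (−0.59, 0.000986) and *FSTL3* (−0.47, 0.00253). The siATF4 difference passed for 3, *JUNB* (−1.17, limma adjusted p = 5.76e-06), *FSTL3* (−0.54, 0.000302) and *FN1* (0.47, 0.0014). Of all genes, 22.0% passed for siY/T and 41.1% for siATF4. The 6 genes were picked by their changes with Sorafenib, from which these differences are built, so the counts of 5 and 3 are no independent result. *RHOB*, a small GTPase gene, differed for both, by −0.83 for siY/T and −1.26 for siATF4.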
